A study of Homo sapiens with 9 samples.

Results

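SR proteins, heterogeneous nuclear ribonucleoproteins (hnRNPs) and the proteins that place the U2 snRNP on the branch site were measured as mRNA in 143B cells, a human osteosarcoma line. The genes were the protein-coding genes of the expression table whose symbol starts with SRSF, HNRNP, SF3A, SF3B or U2AF, without pseudogenes, and whose FPKM averaged 1 or more over all libraries. FPKM counts the fragments of a gene per length of exon, scaled to the size of the library. The rule gave 43 genes out of 36810 in the table, of which 17169 were protein-coding: 11 SRSF, 21 HNRNP, 3 SF3A, 6 SF3B and 2 U2AF genes. Another 5 protein-coding genes matched by symbol but lay below the mean: the nearest below was U2AF1L4 at 0.640 FPKM, and the lowest gene kept was U2AF1L5 at 3.13 FPKM. All 43 genes passed the filter on low values used for the tests (at least 1 FPKM in 3 or more libraries).

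The study has 9 libraries of poly(A)-selected RNA in 3 groups of 3: untreated 143B cells (control, 0 h), and 143B cells given 0.5 µM of the compound XD23 for 24 h or for 48 h. XD23 is known here only by its code name, and the study presents it as an inhibitor of osteosarcoma that acts through DKK1 and WNT signalling. All groups come from 1 cell line. No vehicle and no time-matched untreated cells are mentioned in the labels, so time in culture and XD23 cannot be told apart. Whether libraries of the same group are separate cultures is not stated either, so the p-values measure only the spread between these libraries.

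Splicing removes introns from pre-mRNA in the spliceosome. SR proteins bind enhancer sequences in exons through RNA recognition motifs and recruit the splicing machinery through domains rich in arginine and serine, whereas hnRNPs coat nascent RNA and often oppose the use of nearby splice sites. U2AF2 binds the polypyrimidine tract and U2AF1 the AG at the 3′ splice site, and the U2 snRNP then pairs with the branch site with the help of the SF3a and SF3b complexes. Many SR protein and hnRNP genes also carry unproductive exons: an extra exon with a premature stop sends the transcript to nonsense-mediated decay, and the proteins often regulate the inclusion of such exons in their own transcripts.

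Promoter sequences are shown for the genes with the largest changes at 48 h and for the only gene that rose, since these genes carry the main result. RefSeq (build GRCh38.p14) gave a promoter for 38 of the 43 genes, and the 250 bases before the annotated start are printed 5′ to 3′ on the gene's strand. Capitals mark matches, on either strand, to 9 short motifs. The GC box, bound by SP1 and its relatives, was searched as GGGCGG. The core of the sites of ETS factors was searched as CCGGAAG and the box of the factor NFY as CCAAT. For the E-box of MYC and USF the letters were CACGTG, and for the core of NRF1 sites they were GCATGCGC. The TATA box was searched as TATAAA and the CRE half-site, bound by CREB, as TGACGT. For the factor YY1 the letters were AAGATGGCG, and the last motif was the element CTCGCGAG, found in many housekeeping promoters. No motif contains another of the list. In GENCODE release 29 some transcripts of HNRNPC, SF3B6, SRSF10 and HNRNPUL2 start within or before these windows.
HNRNPC promoter, chr14:21269443-21269692, minus strand: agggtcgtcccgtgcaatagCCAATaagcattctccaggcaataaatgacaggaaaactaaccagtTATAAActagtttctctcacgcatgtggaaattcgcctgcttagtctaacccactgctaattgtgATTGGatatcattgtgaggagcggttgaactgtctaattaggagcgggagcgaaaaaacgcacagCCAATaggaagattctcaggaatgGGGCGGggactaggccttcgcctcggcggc
SF3B5 promoter, chr6:144095574-144095823, minus strand: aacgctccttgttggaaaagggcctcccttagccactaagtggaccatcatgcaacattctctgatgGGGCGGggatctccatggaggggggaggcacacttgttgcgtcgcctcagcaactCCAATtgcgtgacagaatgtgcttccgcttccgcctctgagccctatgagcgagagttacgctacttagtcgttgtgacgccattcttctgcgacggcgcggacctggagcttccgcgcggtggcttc
SF3B6 promoter, chr2:24076327-24076576, minus strand: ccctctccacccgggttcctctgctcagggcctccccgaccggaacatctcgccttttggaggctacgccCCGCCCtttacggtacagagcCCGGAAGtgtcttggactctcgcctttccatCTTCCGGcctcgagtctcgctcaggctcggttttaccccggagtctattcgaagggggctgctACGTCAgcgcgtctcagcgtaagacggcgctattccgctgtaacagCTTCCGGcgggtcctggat
SRSF10 promoter, chr1:23980328-23980577, minus strand: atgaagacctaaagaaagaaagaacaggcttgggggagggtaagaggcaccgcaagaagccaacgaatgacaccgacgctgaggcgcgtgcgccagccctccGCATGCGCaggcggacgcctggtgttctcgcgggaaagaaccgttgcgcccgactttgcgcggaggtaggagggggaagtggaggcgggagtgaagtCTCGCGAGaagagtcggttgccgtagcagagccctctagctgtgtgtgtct
HNRNPUL2 promoter, chr11:62727458-62727707, minus strand: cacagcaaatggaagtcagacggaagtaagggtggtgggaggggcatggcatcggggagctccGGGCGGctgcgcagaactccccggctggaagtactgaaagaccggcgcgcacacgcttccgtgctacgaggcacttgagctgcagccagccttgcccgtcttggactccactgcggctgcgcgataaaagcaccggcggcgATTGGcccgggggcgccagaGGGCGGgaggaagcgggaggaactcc
HNRNPC had 3 CCAAT boxes and a TATA box, and SF3B6 had 3 ETS cores. Over windows from 250 bases before to 50 after the start, the ETS core was found in 6 of 8 SF3A and SF3B promoters, 2 of 10 SRSF promoters and 3 of 19 HNRNP promoters, against 20.7% of 8921 protein-coding genes tested and 10.7% of all 27305 promoters. The CCAAT box was found in 13 of 19 HNRNP promoters and 2 of 10 SRSF promoters (36.7% of protein-coding genes tested, 35.7% of all promoters). The E-box was found in 7 of 19 HNRNP promoters and 0 of 10 SRSF promoters (10.5% and 7.4%). Of the 22 promoters of genes that fell at 48 h, 8 held the ETS core, 9 the CCAAT box, 14 the GC box, 2 the E-box and 5 the CRE half-site, against 4, 7, 12, 6 and 1 of the 16 promoters of the other genes. The NRF1 core was in 1, the TATA box in 3, the YY1 core in 0 and CTCGCGAG in 3 of the 22, against 1, 2, 2 and 1 of the 16. Among protein-coding genes tested, 72.5% held the GC box and 12.3% the CRE half-site. The NRF1 core was in 5.7% of them, the TATA box in 5.1%, the YY1 core in 4.3% and CTCGCGAG in 2.2%. These matches describe letters in a window and were not tested against the expression changes.

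Short windows of unproductive exons are shown because the FPKM of a gene pools all of its transcripts. In GENCODE release 29, 29 of the 43 genes (67.4%) had at least 1 transcript annotated as a target of nonsense-mediated decay, against 43.4% of the protein-coding genes tested. This held for 11 of 11 SRSF genes, 13 of 21 HNRNP genes and 3 of 9 SF3A and SF3B genes. In 14 genes, 6 of them SRSF genes, the premature stop lay inside an internal exon that is skipped in the principal transcript. The windows below hold that stop codon in capitals and come from GENCODE transcripts on hg38.
SRSF3, chr6:36599839-36599868, plus strand, in an exon of 456 bases: tctcaccaccctcTGAatctgcattagcca
SRSF7, chr2:38749305-38749334, minus strand, in an exon of 449 bases: gagtcagtcgcctTGAttcagaatgtcacg
SRSF6, chr20:43459289-43459318, plus strand, in an exon of 268 bases: agccttttgccatTAGacgcagggtgatgg
SRSF11, chr1:70231893-70231922, plus strand, in an exon of 117 bases: agcttttgaaagtTGAgagcacacccctgg
HNRNPH1, chr5:179621937-179621966, minus strand, in an exon of 134 bases: ggaaagcgacctgTAAaacaagaaccaagt
Transcripts with and without these exons were not separated by the gene-level values, so a change in FPKM is a change in their sum. Of the 23 genes that fell at 48 h, 17 had any transcript annotated as a target of nonsense-mediated decay, as had 12 of the other 20.

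Near-identical copies limit what the values of some genes mean. The coding sequence of U2AF1L5, on the short arm of chromosome 21, was identical to that of U2AF1 over all 723 bases. HNRNPA1L3 (HNRNPA1P48 in GENCODE release 29) matched HNRNPA1 at 957 of 963 coding bases. The longest run without a mismatch was 373 bases, so many fragments could come from either gene. Among 50-base windows of the principal transcript, all of U2AF1L5, 49.9% of HNRNPA3, 49.2% of HNRNPA1L3, 28.8% of HNRNPA1, 27.6% of HNRNPC, 15.8% of HNRNPL, 13.3% of HNRNPK and 10.5% of SF3B4 also occurred in another gene or pseudogene. For SRSF6 the share was 6.4%, for HNRNPR 5.8% and for SRSF10 5.5%. The levels of all these genes are therefore uncertain. The shares count exact matches and do not measure how many fragments were given to the wrong gene. The library kit is not stated to keep strand, so reads from overlapping genes on the opposite strand cannot be separated either. GATC overlapped 46.2% of the exon bases of SRSF9, MFSD11 36.7% of those of SRSF2 and AC015813.5 13.2% of those of SRSF1. On the same strand, AC015813.2 covered 56.6% of the exon bases of SRSF1 and was counted at a mean of 0.0287 FPKM.

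The libraries held between 18341542 and 22901830 counted fragments, and the fewest behind any of the 43 genes in 1 library was 243 (U2AF1L5). The third 24 h library stood apart from the other 8 on the second principal component, and 82 ribosomal protein genes averaged 7.81 there on the log2(FPKM + 1) scale, against 7.43 to 7.60 elsewhere. Of the line's markers, VIM (297 to 389 FPKM), CD44 (52.7 to 56.9 FPKM) and RUNX2 (4.06 to 6.61 FPKM) were present in every library, whereas the bone matrix genes COL1A1 and COL1A2 and the phosphatase ALPL stayed below 1 FPKM. The epithelial keratin gene KRT18 was also present and lower at 48 h (118 to 130 FPKM) than in control (153 to 161 FPKM), as were KRT8 (18.5 to 20.5 against 25.9 to 27.6 FPKM), EPCAM (2.50 to 2.98 against 3.52 to 4.29 FPKM) and the matrix gene SPARC (27.6 to 28.5 against 40.1 to 43.3 FPKM), with KRT5 and KRT19 at or near 0. The blood marker PTPRC was near 0. VIM went the other way, with 347 to 374 FPKM at 48 h against 297 to 311 FPKM in control, and CD44 overlapped (53.6 to 56.7 against 52.7 to 55.00 FPKM). Whether these marker levels play a part in the changes described here was not tested.

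The genes were abundant in 143B cells. Per length, the highest levels belonged to HNRNPA1, which binds UAG motifs and shuttles between nucleus and cytoplasm, with a mean of 377 FPKM over the 9 libraries, and to HNRNPK, which binds C-rich RNA through KH domains, with 197 FPKM. SRSF5 (116 FPKM) led the SR proteins and SRSF4 (8.67 FPKM) was the lowest of them. Within SF3b the subunits SF3B5, SF3B4 and SF3B6 were at 104, 98.4 and 96.7 FPKM, and the scaffold SF3B1 was at 42.4 FPKM. The median was 31.2 FPKM for the SRSF genes, 57.2 FPKM for the HNRNP genes and 42.4 FPKM for the SF3A and SF3B genes.

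**Figure D1:**
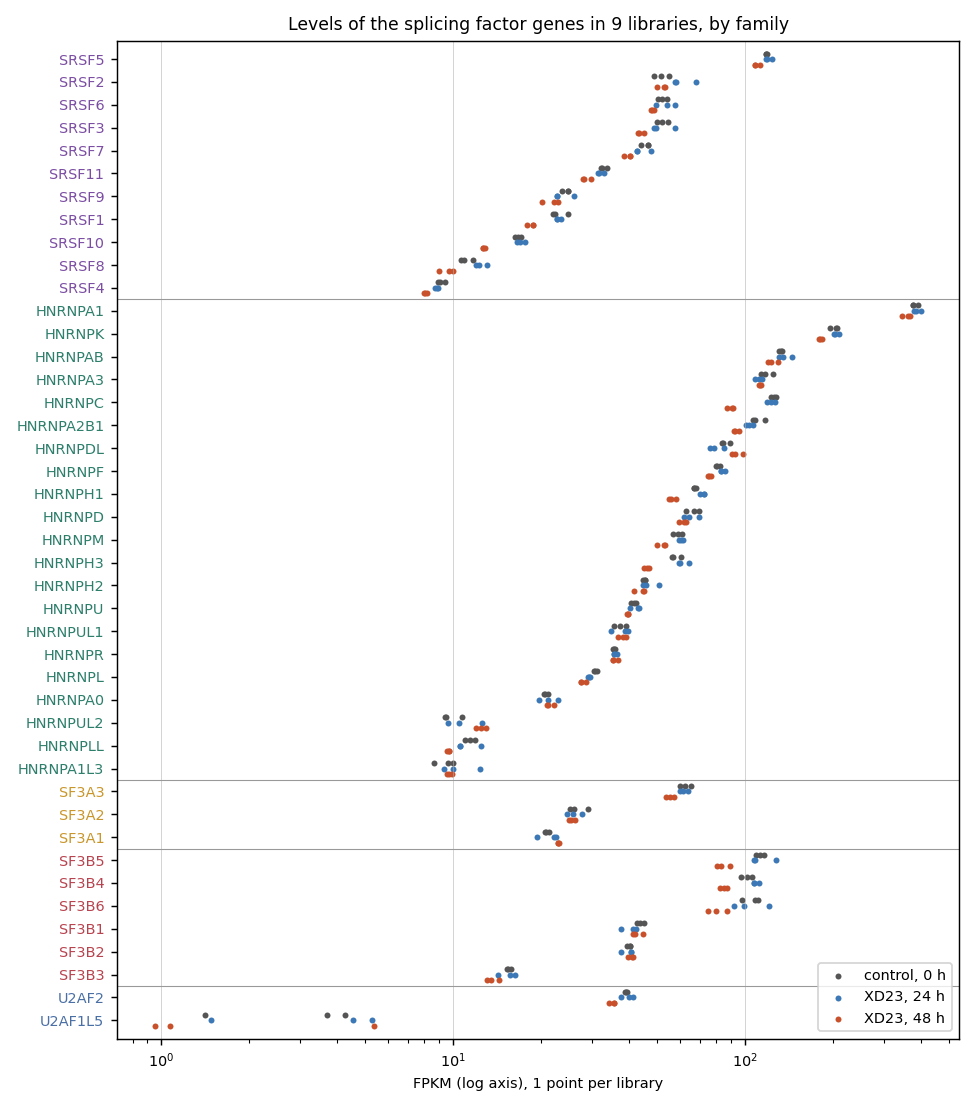
FPKM (log axis) of the 43 genes in each of the 9 libraries, by family, with control in grey, 24 h of XD23 in blue and 48 h in orange. The 48 h points of HNRNPC (86.9 to 91.3 FPKM) and SRSF10 (12.7 to 12.9 FPKM) lie left of all their other points, and the points of U2AF1L5 scatter from 0.958 to 5.39 FPKM.

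At 24 h of XD23 none of the 43 genes was called changed against control (limma on log2(FPKM + 1), Benjamini-Hochberg adjusted p under 0.05 over 13657 genes). The background was as low: 1 gene in all, or 0.00732% of those tested. At an unadjusted p under 0.05 there were 5 genes (SRSF2, SRSF8, HNRNPH1 and SF3B4 with higher values, HNRNPL with lower ones), against 7.43% of all genes tested, and limma with voom weights on recovered fragments also called 0. The 3 libraries at 24 h lay wholly above the 3 control libraries for 5 genes and wholly below them for 3, against 4.81% and 8.38% of all genes tested. Without the third 24 h library the count was 0 too. The summed FPKM of the 43 genes was 2743 ± 50.8 in control and 2765 ± 91.7 at 24 h (SD, n = 3 each).

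The largest difference at 24 h was that of SRSF2, the SR protein known as SC35 that marks nuclear speckles. SRSF2 measured 55.1, 49.0 and 51.7 FPKM in control, 57.9, 58.0 and 67.9 FPKM at 24 h and 53.5, 50.003 and 53.0 FPKM at 48 h. The 24 h libraries did not overlap the control libraries, and the library with the highest value was the one that stood apart. The log2 fold change at 24 h was 0.23 ± 0.07 (SE) and did not pass the test (adjusted p = 0.552). SRSF8, an intronless relative of SRSF2, gave 10.9, 10.7 and 11.7 FPKM in control and 12.3, 12.01 and 13.1 FPKM at 24 h, again without overlap and without a call (0.15 ± 0.05, adjusted p = 0.593).

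At 48 h of XD23, 23 of the 43 genes fell against control and 1, HNRNPUL2, rose. Over all genes tested 15.2% fell and 13.3% rose, and of the genes that averaged 10 FPKM or more, as 40 of the 43 did, 23.5% fell. The falls were small: the largest log2 fold change was that of HNRNPC (-0.48), and the median over the 43 genes was -0.15, against -0.02 over all genes tested. The 48 h libraries lay wholly below control for 29 genes and wholly above for 3 (HNRNPUL2, HNRNPDL and SF3A1), against 27.7% and 22.7% of all genes tested. The summed FPKM of the 43 genes was 2467 ± 42.2 at 48 h (SD, n = 3), and no 48 h library reached the lowest control library. In bulk RNA, less of a transcript in every cell and fewer cells that express it cannot be told apart, and FPKM gives each gene's share of a library, not molecules per cell. Of the 24 calls, 11 held in all 21 alternative settings of the processing. The count of genes lower at 48 h depended on single libraries. It was 12 without the first control library, 14 without the third, 15 without the first 48 h library and 13 without the second. Over all genes tested the counts lower, in the same order, were 1385, 1394, 1528 and 1371, against 2080 with all libraries. Without the 11 genes that shared over 5% of their windows with another gene, 18 of 32 fell and 1 rose.

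**Figure D2:**
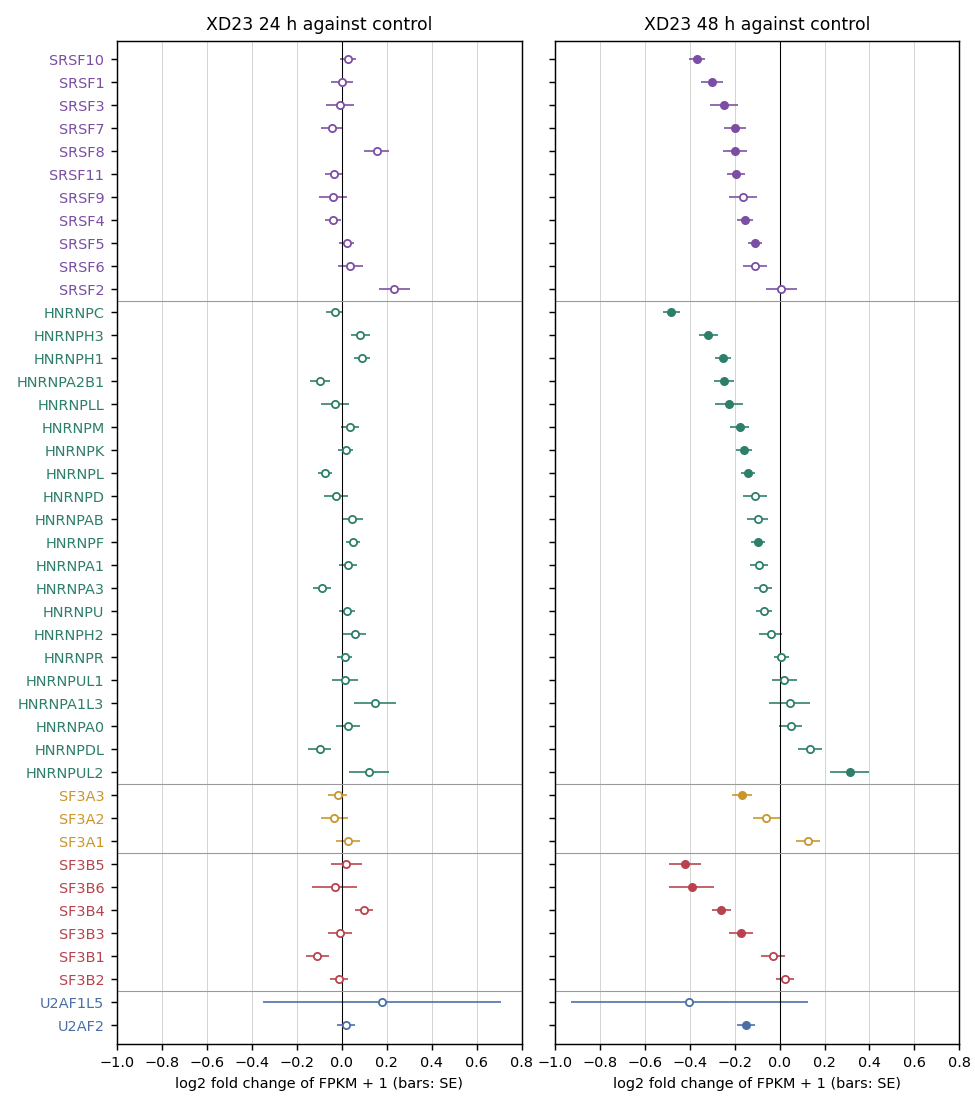
Log2 fold changes of FPKM + 1 against control at 24 h (left) and 48 h (right) for the 43 genes, ordered by the 48 h value within each family; bars are standard errors and filled points passed the test. No point is filled at 24 h, and at 48 h 23 filled points lie left of 0 and that of HNRNPUL2 lies right of it.

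Of the 11 SRSF genes, 8 fell at 48 h and none rose: SRSF10, SRSF1, SRSF3, SRSF7, SRSF8, SRSF11, SRSF4 and SRSF5. Over all genes tested 15.2% fell, and 23.5% of those that averaged 10 FPKM or more. The median log2 fold change of the family was -0.19. SRSF10, which acts as a splicing repressor when dephosphorylated, changed most. It measured 17.1, 16.4 and 16.8 FPKM in control, 17.0, 17.6 and 16.7 FPKM at 24 h, and 12.7, 12.7 and 12.9 FPKM at 48 h. The 6 libraries at 0 and 24 h formed 1 range and the 48 h libraries lay below all of them, with a log2 fold change of -0.37 ± 0.04 (SE, adjusted p = 0.000233). SRSF1, the prototype SR protein of exon definition, measured 24.8, 22.4 and 22.0 FPKM in control, 23.5, 22.8 and 22.7 FPKM at 24 h, and 18.8, 18.8 and 17.97 FPKM at 48 h. Its 48 h libraries were again below all others (-0.30 ± 0.05, adjusted p = 0.00235).

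SRSF3 and SRSF7 bind RNA next to splice sites and also act as adaptors for mRNA export. SRSF3 measured 54.7, 50.2 and 52.0 FPKM in control, 49.0, 49.8 and 57.5 FPKM at 24 h, and 43.6, 42.9 and 45.3 FPKM at 48 h (-0.25 ± 0.06, adjusted p = 0.0187). SRSF7 measured 46.5, 44.3 and 46.7 FPKM in control, 42.7, 42.7 and 47.9 FPKM at 24 h, and 40.5, 38.6 and 40.3 FPKM at 48 h (-0.20 ± 0.05, adjusted p = 0.0194). For both genes the 48 h libraries stayed below the lowest control library, while the 24 h libraries overlapped control. The call ended in 5 of 21 alternative settings for SRSF3 and in 3 for SRSF7, with adjusted p up to 0.0707 and 0.0722; apart from the setting with no filter for SRSF3, each left out a library.

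SRSF11 is a U2AF2-interacting SR-related protein and SRSF4 the longest of the classical SR proteins. The SRSF11 libraries measured 32.6, 32.2 and 33.8 FPKM in control, 31.6, 33.0 and 31.5 FPKM at 24 h, and 28.0, 29.8 and 27.9 FPKM at 48 h (-0.19 ± 0.04, adjusted p = 0.00701). Those of SRSF4 measured 9.04, 9.38 and 8.87 FPKM in control, 8.91, 8.85 and 8.72 FPKM at 24 h, and 7.998, 8.06 and 8.17 FPKM at 48 h (-0.15 ± 0.04, adjusted p = 0.0131). Neither gene's 48 h libraries overlapped control. SRSF8, which was above control at 24 h, was below it at 48 h with 9.67, 8.99 and 10.0 FPKM (-0.20 ± 0.05, adjusted p = 0.0251). The call ended in 5 of 21 alternative settings for SRSF8 and in 2 for SRSF4 (adjusted p up to 0.0894 and 0.0718). SRSF5, the most abundant SR transcript, measured 119, 119 and 119 FPKM in control, 118, 119.5 and 124 FPKM at 24 h, and 108, 109 and 113 FPKM at 48 h. Its fall of 0.11 ± 0.03 on the log2 scale (adjusted p = 0.0339) ended as a call in 11 of 21 alternative settings (adjusted p up to 0.241).

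The remaining 3 SRSF genes were not called. SRSF2 overlapped the control range at 48 h (0.01 ± 0.07). SRSF6 measured 54.1, 50.6 and 52.0 FPKM in control and 47.9, 48.9 and 48.1 FPKM at 48 h without overlap (-0.11 ± 0.05, adjusted p = 0.167), and SRSF9 was likewise lower without overlap (-0.16 ± 0.06, adjusted p = 0.0885).

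Among the 21 HNRNP genes, 9 fell at 48 h (HNRNPC, HNRNPH3, HNRNPH1, HNRNPA2B1, HNRNPLL, HNRNPM, HNRNPK, HNRNPL and HNRNPF), HNRNPUL2 rose and 11 were not called. The background was 15.2% lower over all genes tested and 23.5% lower among those that averaged 10 FPKM or more. The family's median log2 fold change was -0.09, nearer to 0 than that of the SRSF genes. The difference between the families was not tested. HNRNPC (chr14:21209136-21269494, minus strand, hg38) encodes a protein that binds runs of U and keeps U2AF2 from cryptic splice sites. It measured 128, 123 and 126 FPKM in control, 119, 123 and 127 FPKM at 24 h, and 90.5, 86.9 and 91.3 FPKM at 48 h. Its 48 h libraries lay below all of the others, and the fall of 0.48 ± 0.04 on the log2 scale (adjusted p = 9.14e-05) was the largest of the 43 genes. The processed copy HNRNPCP2, which shares 25.2% of the windows of HNRNPC, had means of 16.7 FPKM in control and 12.6 FPKM at 48 h (-0.38 ± 0.13, adjusted p = 0.0602).

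HNRNPH1, HNRNPH3 and HNRNPF belong to a group of hnRNPs that bind runs of G. HNRNPH3 measured 60.3, 56.8 and 56.4 FPKM in control, 59.5, 60.2 and 64.2 FPKM at 24 h, and 47.1, 45.2 and 46.3 FPKM at 48 h (-0.32 ± 0.04, adjusted p = 0.000963). HNRNPH1 measured 67.1, 66.9 and 68.1 FPKM in control, 70.2, 72.4 and 72.6 FPKM at 24 h, and 55.1, 58.3 and 55.9 FPKM at 48 h (-0.25 ± 0.03, adjusted p = 0.000998). For both genes all 24 h libraries stood above all 48 h libraries, and for HNRNPH1 they also stood above control. HNRNPF measured 80.4, 82.5 and 79.9 FPKM in control, 83.1, 82.8 and 85.8 FPKM at 24 h, and 75.1, 75.6 and 76.5 FPKM at 48 h. Its fall of 0.09 ± 0.03 on the log2 scale was at the edge of the test (adjusted p = 0.0491) and ended as a call in 15 of 21 alternative settings (adjusted p up to 0.592). HNRNPH2, a close relative of HNRNPH1, was not called (-0.04 ± 0.05, adjusted p = 0.605).

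HNRNPA2B1 is a close relative of HNRNPA1 and also binds UAG motifs. Its libraries measured 118, 108 and 107 FPKM in control, 101, 103 and 107 FPKM at 24 h, and 92.3, 91.8 and 95.7 FPKM at 48 h (-0.25 ± 0.04, adjusted p = 0.00418). HNRNPA1 itself measured 393, 376 and 376 FPKM in control, 381, 385 and 402 FPKM at 24 h, and 363, 346 and 367 FPKM at 48 h. The 48 h libraries of HNRNPA1 were below control without overlap, but the log2 fold change of -0.09 ± 0.04 did not pass (adjusted p = 0.124), and this gene shares much sequence with its copies. HNRNPA3 (-0.07 ± 0.04), HNRNPAB (-0.10 ± 0.05), HNRNPA0 (0.05 ± 0.05) and HNRNPA1L3 (0.04 ± 0.09) were not called either.

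HNRNPK measured 206, 207 and 196 FPKM in control, 202, 204 and 210.1 FPKM at 24 h, and 184, 179.7 and 181 FPKM at 48 h (-0.16 ± 0.03, adjusted p = 0.01). HNRNPM, which binds GU-rich RNA, measured 61.1, 59.2 and 56.9 FPKM in control, 59.6, 61.6 and 60.3 FPKM at 24 h, and 53.4, 49.9 and 53.0 FPKM at 48 h (-0.18 ± 0.04, adjusted p = 0.0118). In both cases the 48 h range ended below the lowest library of either other group. The CA-repeat binding proteins HNRNPL and HNRNPLL are related to each other, and HNRNPLL is known for the switch in CD45 splicing in T cells. HNRNPL gave 31.2, 30.6 and 30.7 FPKM in control, 29.2, 29.5 and 28.95 FPKM at 24 h, and 28.7, 27.4 and 27.5 FPKM at 48 h (-0.14 ± 0.03, adjusted p = 0.0121), so its 3 groups lay in 3 separate ranges. HNRNPLL gave 11.96, 11.4 and 11.02 FPKM in control, 10.6, 10.6 and 12.5 FPKM at 24 h, and 9.71, 9.55 and 9.70 FPKM at 48 h (-0.23 ± 0.06, adjusted p = 0.0249). The call ended in 6 of 21 alternative settings for HNRNPLL and in 3 for HNRNPL, with adjusted p up to 0.0882 and 0.0735.

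HNRNPUL2 (chr11:62712630-62727472, minus strand) encodes a relative of the scaffold attachment factor HNRNPU and was the only one of the 43 genes that rose. It measured 10.8, 9.44 and 9.50 FPKM in control, 9.60, 10.5 and 12.6 FPKM at 24 h, and 12.01, 12.5 and 13.004 FPKM at 48 h. The 48 h libraries were above control, and the 24 h libraries spanned both ranges. The log2 fold change was 0.31 ± 0.09 (adjusted p = 0.029), and the call ended in 6 of 21 alternative settings, 5 of them with a library left out (adjusted p up to 0.091). A readthrough gene, HNRNPUL2-BSCL2, covers 44.1% of its exon bases and was counted at a mean of 0.00121 FPKM. HNRNPU (-0.07 ± 0.04) and HNRNPUL1 (0.02 ± 0.06) were not called. HNRNPDL, a close relative of HNRNPD with 4 transcripts annotated for nonsense-mediated decay, measured 88.8, 83.7 and 84.2 FPKM in control, 76.0, 78.4 and 85.2 FPKM at 24 h, and 92.5, 90.7 and 98.8 FPKM at 48 h. Its 48 h libraries were above all others, with 0.13 ± 0.05 against control (adjusted p = 0.0905) and a call only against 24 h. HNRNPD (-0.11 ± 0.05) and HNRNPR (0.01 ± 0.03) were not called.

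Among the 9 subunits of SF3a and SF3b with the prefix, 5 fell at 48 h and none rose: SF3B5, SF3B6, SF3B4, SF3B3 and SF3A3. The shares lower were 15.2% over all genes tested and 23.5% among those that averaged 10 FPKM or more. SF3B5 (chr6:144094881-144095573, minus strand), a small SF3b subunit, measured 116, 109 and 113 FPKM in control, 108, 107 and 128 FPKM at 24 h, and 89.0, 80.3 and 82.7 FPKM at 48 h (-0.42 ± 0.07, adjusted p = 0.00306). SF3B6, the subunit close to the branch adenosine, measured 111, 98.2 and 108 FPKM in control, 91.8, 99.1 and 121 FPKM at 24 h, and 74.7, 79.8 and 86.7 FPKM at 48 h (-0.39 ± 0.10, adjusted p = 0.0192). Both genes were highest in the third 24 h library, the one that stood apart, and for both the 48 h range ended below every other library. The SF3B6 call ended in 5 of 21 alternative settings (adjusted p up to 0.0685). SF3B4, an RNA-binding subunit that contacts the pre-mRNA upstream of the branch site, measured 101, 106 and 97.4 FPKM in control, 108, 107 and 112 FPKM at 24 h, and 86.9, 84.8 and 82.5 FPKM at 48 h (-0.26 ± 0.04, adjusted p = 0.00212). The order of the groups was 24 h, control, 48 h, with no overlap between any of them.

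Of the large SF3b subunits, SF3B3 was called at 48 h, and SF3B1 and SF3B2 were not. SF3B3 measured 15.4, 15.8 and 15.4 FPKM in control, 15.7, 16.4 and 14.3 FPKM at 24 h, and 14.4, 13.1 and 13.6 FPKM at 48 h, a fall of 0.17 ± 0.05 on the log2 scale (adjusted p = 0.0411) that ended as a call in 12 of 21 alternative settings (adjusted p up to 0.156). SF3B1, the scaffold around the branch helix and the target of splicing inhibitors such as pladienolide B, measured 42.7, 43.6 and 45.01 FPKM in control, 42.5, 41.6 and 37.6 FPKM at 24 h, and 42.1, 44.9 and 41.6 FPKM at 48 h. Its 48 h and control ranges overlapped (-0.03 ± 0.05, adjusted p = 0.716). SF3B2 measured 40.4, 39.5 and 40.3 FPKM in control, 40.7, 40.9 and 37.7 FPKM at 24 h, and 41.2, 39.8 and 41.3 FPKM at 48 h (0.02 ± 0.04, adjusted p = 0.701). Whether SF3B5, SF3B6, SF3B4 or SF3B3 changed more than SF3B1 and SF3B2 was not tested. In SF3a, SF3A3 measured 65.3, 59.9 and 62.5 FPKM in control, 59.9, 63.8 and 61.6 FPKM at 24 h, and 55.7, 53.9 and 57.4 FPKM at 48 h (-0.17 ± 0.04, adjusted p = 0.0215, up to 0.0817 in the 4 settings that ended the call, each with a library left out). SF3A1 lay above control at 48 h without overlap (20.8, 21.4 and 20.7 against 23.0, 22.9 and 22.9 FPKM) but did not pass (0.13 ± 0.05, adjusted p = 0.12), and SF3A2 was not called (-0.06 ± 0.06).

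U2AF2 measured 39.6, 39.1 and 38.8 FPKM in control, 40.1, 41.3 and 37.7 FPKM at 24 h, and 35.7, 34.3 and 35.7 FPKM at 48 h. The 48 h libraries lay below the other 6, with a log2 fold change of -0.15 ± 0.04 (adjusted p = 0.0235, up to 0.18 in the 7 of 21 settings that ended the call). Its partner U2AF1 was listed at a mean of 0.152 FPKM, and U2AF1L5 measured 1.42, 4.27 and 3.70 FPKM in control, 5.27, 1.48 and 4.56 FPKM at 24 h, and 5.39, 0.958 and 1.08 FPKM at 48 h. The U2AF1L5 groups overlapped fully and its standard error of 0.53 was the largest of the 43 genes. Since both loci carry the same coding sequence, the level of U2AF1 mRNA cannot be read from either value.

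**Figure D3:**
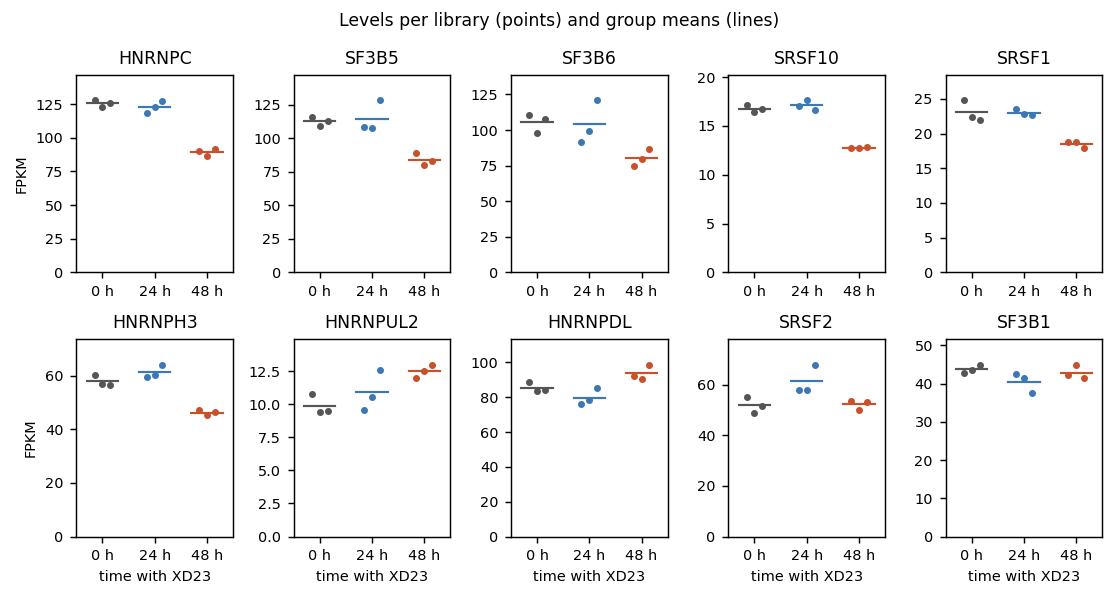
FPKM per library (points) and group means (lines) for 10 genes at 0, 24 and 48 h, each panel with its own axis from 0. HNRNPC, SF3B5, SF3B6, SRSF10, SRSF1 and HNRNPH3 are lowest at 48 h, HNRNPUL2 and HNRNPDL are highest at 48 h, and the ranges of SF3B1 at 0 and 48 h overlap.

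Between 24 h and 48 h of XD23, 24 of the 43 genes fell and 1 rose (HNRNPDL, 0.23 ± 0.05, adjusted p = 0.01). The background was 16.3% lower and 16.0% higher over all genes tested, and 26.5% lower among genes that averaged 10 FPKM or more. The largest falls were those of HNRNPC (-0.45 ± 0.04), SF3B5 (-0.44 ± 0.07), HNRNPH3 (-0.40 ± 0.04), SRSF10 (-0.39 ± 0.04) and SF3B6 (-0.36 ± 0.10). SRSF2 also fell from its 24 h level (-0.22 ± 0.07, adjusted p = 0.0369), although its 48 h level did not differ detectably from control. That call ended in 9 of 21 alternative settings (adjusted p up to 0.121), among them the one without the third 24 h library. The comparison of 48 h with 24 h shares its 48 h libraries with the one against control. The count of the 43 genes lower fell to 13 without the first 48 h library and to 12 without the second. It fell to 15 with no filter on low values, with quantile normalization or with only the 6 libraries compared. Over all genes tested the count lower was 2227, and it was 1666 and 1487 without those libraries. It was 1604 of 36810 genes with no filter, 2216 with quantile normalization and 1742 with only the 6 libraries compared.

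Other splicing genes were taken from 11 lists with 207 tested genes. None was called at 24 h, and at 48 h 64 fell and 12 rose, with a median log2 fold change of -0.10. Beside each list's count stand the shares over all genes tested, 15.2% lower and 13.3% higher, and 23.5% lower among genes that averaged 10 FPKM or more. The partners of the SF3b complex and the branch site counted 7 genes lower and none higher of 17. Among them PHF5A, the SF3b subunit next to SF3B1, went from 67.7 to 49.5 FPKM (group means of control and 48 h, -0.45 ± 0.07, adjusted p = 0.00228). The helicase DDX46, which loads the U2 snRNP, went from 23.2 to 17.0 FPKM (-0.42 ± 0.06). U2SURP (-0.36 ± 0.04) and the U2 snRNP protein SNRPB2 (-0.30 ± 0.08) fell as well. The Sm and LSm proteins, which form rings around the spliceosomal RNAs, had 8 of 14 genes lower and none higher, and the largest fall was that of LSM3, from 19.3 to 11.96 FPKM (-0.65 ± 0.08, adjusted p = 0.000707). SNRPG (-0.55 ± 0.10), LSM4 (-0.44 ± 0.08) and SNRPE (-0.36 ± 0.10) followed.

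In the list of SR-like and SR-related proteins 12 of 25 genes fell and 3 rose. TRA2B, an SR-like activator of exon inclusion, went from 28.1 to 20.3 FPKM (-0.45 ± 0.04, adjusted p = 0.000115). BCLAF1 (-0.46 ± 0.05), the exon junction factor RNPS1 (-0.41 ± 0.04) and THRAP3 (-0.37 ± 0.07) fell too. The 3 that rose, LUC7L (0.35 ± 0.06), RSRP1 (0.30 ± 0.06) and SCAF4 (0.26 ± 0.07), are named after their values were seen. The kinases and phosphatases that act on the serine-arginine domains had 1 gene lower (PRPF4B, -0.17 ± 0.05) and 1 higher (SRPK2, 0.20 ± 0.04) of 12. SRPK1, which phosphorylates SR proteins in the cytoplasm, was not called (0.03 ± 0.07, adjusted p = 0.776), and neither was the nuclear kinase CLK1 (-0.09 ± 0.05, adjusted p = 0.203).

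Of 7 U1 snRNP genes 2 fell, SNRPA (-0.43 ± 0.06) and SNRPC (-0.37 ± 0.04). In a list this short, that is near the 23.5% lower among genes that averaged 10 FPKM or more. The tri-snRNP list had 6 of 18 genes lower, led by PPIH (-0.40 ± 0.06), PRPF4 (-0.32 ± 0.04), ZMAT2 (-0.26 ± 0.04) and SNRNP40 (-0.25 ± 0.05), and the list of the Prp19 complex and the catalytic steps had 11 of 30 lower, led by BUD31 (-0.45 ± 0.07), PLRG1 (-0.44 ± 0.04), DHX35 (-0.24 ± 0.04) and CDC40 (-0.23 ± 0.04). No gene of these 3 lists rose. In the minor spliceosome 3 of 9 genes fell, SNRNP25 (-0.56 ± 0.14), SCNM1 (-0.26 ± 0.05) and ZCRB1 (-0.18 ± 0.06), and PDCD7 rose (0.27 ± 0.04).

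The list of other regulators of alternative splicing had 10 of 43 genes lower and 5 higher. The share lower was near the 23.5% of genes that averaged 10 FPKM or more and above the 15.2% over all genes tested. The share higher was near the 13.3% over all genes tested. PTBP1, the polypyrimidine tract binding protein, went from 56.9 to 47.8 FPKM (-0.25 ± 0.05, adjusted p = 0.0053). PSPC1 (-0.36 ± 0.05), RBM4B (-0.34 ± 0.07) and MBNL3 (-0.31 ± 0.09) fell more. The 5 that rose were NOVA1 (0.23 ± 0.07), MBNL2 (0.22 ± 0.04), FUBP1 (0.20 ± 0.05), DDX5 (0.12 ± 0.03) and TARDBP (0.11 ± 0.03), also named after their values were seen. The calls of LUC7L, RSRP1 and MBNL2 held in all 21 alternative settings, and those of SCAF4, NOVA1, FUBP1, DDX5 and TARDBP ended in 2 to 8 (adjusted p up to 0.0985). Of 17 genes for import, export and arginine methylation 4 fell and none rose. Their share lower was again near the 23.5% of genes that averaged 10 FPKM or more. Those that fell were the export adaptor ALYREF, from 86.5 to 58.6 FPKM (-0.56 ± 0.12, adjusted p = 0.00913), PRMT5 (-0.27 ± 0.07), DDX39A (-0.23 ± 0.05) and THOC1 (-0.13 ± 0.04). In the list of the exon junction complex and nonsense-mediated decay, the helicase UPF1 (0.23 ± 0.06) and PNRC2 (0.20 ± 0.04) rose and UPF3B fell (-0.23 ± 0.04), out of 16 genes. That share higher was near the 13.3% over all genes tested, and that share lower was below the 15.2%. The UPF1 call ended in 7 of 21 alternative settings (adjusted p up to 0.0888). Whether any list differed from the rest of the genes was not tested.

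**Figure D4:**
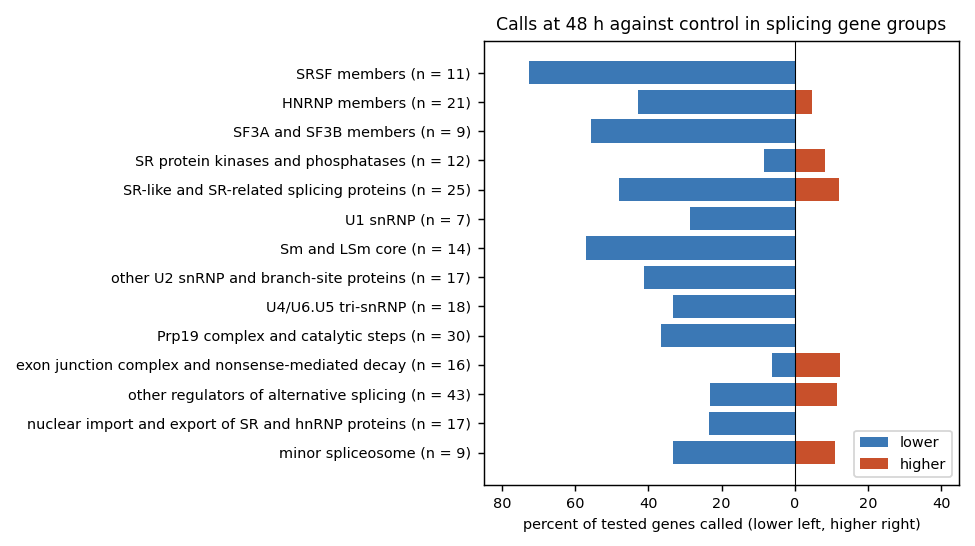
Percent of tested genes called lower (blue, to the left) and higher (orange, to the right) at 48 h against control in the SRSF, HNRNP and SF3A/SF3B genes and in the 11 lists of other splicing genes, with the number tested in brackets. The SRSF bar reaches 72.7% lower, the HNRNP bar 42.9% and the SF3A and SF3B bar 55.6%, and the Sm and LSm core has 8 of 14 genes lower. Not drawn are the shares over all genes tested, 15.2% lower and 13.3% higher. Among genes that averaged 10 FPKM or more 23.5% were lower.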

How the data were processed

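The deposited table gives FPKM per gene for 9 libraries, made by the authors. Per the submitters' processing notes HISAT2, featureCounts (Subread) and DESeq2 were used with hg38; no source used here gives their versions or roles. Multiplication by length gave whole fragments (tolerance 0.001) with GENCODE's summed exon length for 20926 of 36810 genes, 12 of the 43 among them. For 15883 others the smallest length that made all libraries whole was used, so 99.96% of each library's fragments were recovered largely with fitted lengths, and fragment numbers of such genes are estimates; all columns had a sample (0 left out).

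The genes and the pathway lists were chosen with earlier results of these data known. Values were tested as log2(FPKM + 1) with limma 3.58.1 (R 4.3.3): 1 mean per group over all 9 libraries, a variance trend, a filter of at least 1 FPKM in 3 libraries (13657 genes, 10868 of them protein-coding), Benjamini-Hochberg adjustment over all of them and a call at an adjusted p under 0.05. Fold changes on this scale understate the change of low genes. Data were simulated for the comparison at 48 h with control on 13657 genes, with normal noise and a spread smoothed over expression level. The fit recovered 47 of 50 genes changed by -0.5 and 17 of 50 changed by -0.25 (log2). It recovered 48 of 50 at 0.5 and 27 of 50 at 0.25, with 9 false calls. No other genes were changed in the simulation, whereas 3891 genes were called in the data. The adjustment was therefore stricter in the simulation, and its recovery is not that of the real comparison.

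Values in every library are given for the most abundant gene of each family and for called genes, up to the 10 highest and the 10 lowest changes; from each list up to 4 called genes with the largest change are named, plus CLK1, SRPK1, PHF5A, TRA2B and PTBP1. Other genes with library values were added because they complete a complex or family. Deviations of same-numbered libraries correlated weakly at most (-0.06 to 0.24), so the numbers were not used as pairs. Alternatives changed the pseudocount, filter, scaling, trend, weights and the libraries used. Gene models and transcript sequences came from GENCODE release 29 and promoters from RefSeq, the first listed per symbol. No protein sequences were used here. A marker gene, a listed gene and a stretch of sequence are not reported here.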

Additional observations from a re-analysis of the deposited data

Results flagged for a closer look

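The effects of 24 h and 48 h of XD23 share the control libraries, so their difference is the direct comparison of 48 h with 24 h, tested with limma over 13657 genes. It passed for 25 of the 43 genes, 24 with a lower and 1 with a higher value at 48 h, against 16.3% lower and 16.0% higher over all genes tested and 26.5% lower among those that averaged 10 FPKM or more. The log2 fold changes of the SRSF genes were -0.39 for SRSF10, -0.35 for SRSF8, -0.30 for SRSF1, -0.24 for SRSF3, -0.22 for SRSF2, -0.16 for SRSF11, -0.15 for SRSF7, -0.13 for SRSF5 and -0.11 for SRSF4. Those of the HNRNP genes were -0.45 for HNRNPC, -0.40 for HNRNPH3, -0.34 for HNRNPH1, -0.21 for HNRNPM, -0.19 for HNRNPLL, -0.18 for HNRNPK, -0.15 for HNRNPA2B1, -0.15 for HNRNPF, -0.14 for HNRNPAB and 0.23 for HNRNPDL. For the U2 factors they were -0.44 for SF3B5, -0.36 for SF3B6, -0.36 for SF3B4, -0.16 for SF3B3, -0.15 for SF3A3 and -0.17 for U2AF2. Of these 25 calls, 11 held in all 21 alternative settings. Those of SRSF7, SF3B3 and HNRNPAB ended in 13 each, and that of SRSF2 in 9. Adjusted p ranged from 8.57e-05 (HNRNPC) to 0.0466 (HNRNPAB).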

How the results depend on the processing

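No call among the 43 genes or the pathway genes followed changed its sign in any of 21 alternative settings; 163 values without a call did, counting each gene, comparison and setting. The count of the 43 genes called at 24 h was 0 in all of them. At 48 h against control it was 24 (23 lower) and ranged from 16 with no filter on low values to 28 with array weights or with only the 2 groups compared; with 1 library left out it ranged from 13 to 27. Against 24 h it was 25, but 16 with no filter, with quantile normalization or with only the 2 groups compared, and from 13 to 24 with 1 library left out. The count over all genes at 24 h was 1, but 3 with no filter, 4 with quantile normalization, 46 with array weights (15 higher, 31 lower), 2 with scaling to the nuclear genes, and 0 with no trend, with only the 2 groups compared or with voom on recovered fragments; with 1 library left out it ranged from 0 to 2. Over all genes the counts with 1 library left out ranged from 2584 to 5132 at 48 h against control (3891 with all libraries) and from 2985 to 4594 against 24 h (4415). Against control they were 2879 with no filter, 5231 with array weights and 4811 with only the 2 groups compared. Against 24 h they were 3318 with no filter, 4464 with quantile normalization and 3484 with only the 2 groups compared. Voom weights on recovered fragments and scaling to nuclear genes were chosen after seeing the data; voom called 4174 genes at 48 h against control, and 23 of the 43. The cause of these differences was not tested.

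Same-numbered libraries had deviations that correlated between -0.06 and 0.24, over 0.1 in 2 of 9 pairs. Both of those joined a 24 h and a 48 h library (0.12 and 0.24). Differently numbered libraries reached 0.13, so the labels' numbers do not clearly show a pairing. Whether a weak one exists between 24 h and 48 h was not tested. With the replicate number as a block, 22 of the 43 genes were called at 48 h against control, 20 against 24 h and 0 at 24 h, and over all genes 3733, 4344 and 0.

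Of the 24 calls at 48 h against control, 13 ended in at least 1 alternative, and 5 genes without a call gained one in some (HNRNPDL, HNRNPAB, SRSF9, SRSF6 and SF3A1). Of the 48 calls at 48 h among the pathway genes followed, 33 held in every alternative in which the gene was tested. The calls that ended in some were those of DDX39A, PRMT5, FUBP1, SNRNP25, SNRPB2, TARDBP, DDX5, MBNL3, UPF1, SNRPE, NOVA1, SCAF4, THOC1, ZCRB1 and PRPF4B, with adjusted p up to 0.178 (PRPF4B). FPKM without molecular identifiers counts PCR copies. U2AF1L5, whose sequence is shared with U2AF1, had 243 to 1352 fragments in a library and a standard error of 0.53, so only a large change could have been called there.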

Other observations

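The 5 protein-coding genes that match by symbol but lie below the mean of 1 FPKM did not enter the tests. U2AF1L4, a relative of U2AF1, averaged 0.556 FPKM in control, 0.852 FPKM at 24 h and 0.513 FPKM at 48 h, and its 24 h libraries lay above all others. SRSF12 averaged 0.344, 0.350 and 0.442 FPKM in the same order. HNRNPCL1 and HNRNPUL2-BSCL2 were counted in 1 library each, with 1 fragment.

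Several processed copies of HNRNP genes were counted at sizeable levels. HNRNPA1P7 averaged 70.5 FPKM in control and 63.96 FPKM at 48 h, and HNRNPA1P10 22.7 and 21.0 FPKM. HNRNPA3P6 averaged 7.87 and 6.37 FPKM, and HNRNPKP4 7.10 and 5.17 FPKM. None of these 4 was called at 48 h against control. How many of their fragments come from the parent genes was not tested.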
